A study of Mus musculus with 6 samples.

Results

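The genes described here encode STAT transcription factors and their feedback suppressors: Stat2, Stat3, Stat4, Stat5a, Stat5b, Stat6, Socs1, Socs3 and Cish. Of these, 8 are among the 10698 genes that a probe of the array names alone, and Stat6 is on a probe listed for 2 genes. They were taken by gene symbol from the platform's annotation. That rule used no measured value, but earlier results of these data were known when the members were chosen. Their level was compared between untreated RAW 264.7 cells, a mouse macrophage line derived from a virus-induced tumour, and the same cells that had received lipopolysaccharide (LPS, 100 ng/ml) together with LPS-binding protein (LBP, 100 pM). Both were harvested at 4 h, and all RNA came from this 1 line, whose number a few label fields give differently. Each of 6 two-colour arrays carried total RNA of both conditions, in 3 numbered sets with 1 array per dye orientation. Treated RNA was in Cy5 on 1 array of a set and in Cy3 on the other.

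Each value is a ratio on the log2 scale, treated over untreated, on which 1 is a doubling. Ratios of the arrays with treated RNA in Cy3 had their sign turned. Cy5 is named as the test channel in the labels, which makes this direction likely without settling it. If the deposited ratio were the inverse, every sign given here would turn. A value of exactly 0 was taken as not measured. Each array held between 14195 and 15027 measured values for 16281 probes, and the number of arrays limits the precision. Means are given ± SD over n = 3 sets unless stated, and a gene was called when its limma p, adjusted by Benjamini-Hochberg over all features, was below 0.05. Whether each set had its own culture is not in the labels, and a p-value here therefore covers only the spread among these samples, part or all of which may be technical. The table holds ratios and no levels, so the labelled cell type could not be checked by the presence of its markers. Of 12 macrophage marker genes, 7 were called higher and 1 lower after treatment, where 14.0% of all features were called higher and 15.0% lower. Of 32 marker genes of T cells, B cells, fibroblasts, epithelial cells and NK cells, 1, the T cell marker Cd4 at 0.23 ± 0.12, was called higher and 0 lower by limma (1 and 2 at an unadjusted p below 0.05), and they lay between -0.14 and 0.23.

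Cytokines such as interferons and interleukins bind receptors whose cytoplasmic tails carry Janus kinases (JAKs). The kinases phosphorylate latent STAT proteins, which pair, enter the nucleus and bind short DNA elements. STAT2 acts with IRF9 in the complex that type I interferon assembles on interferon-stimulated response elements, whereas most other STAT dimers bind gamma-activated sites. Genes of the SOCS family, which includes Cish, are themselves switched on by STATs, and their products shut the receptors off by blocking kinases or by marking partners for degradation. In macrophages LPS itself signals through TLR4 and not through a JAK-coupled receptor, but it induces interferon-β and interleukins that are.

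The promoter sequences of the members hold letters of both element types. The RefSeq promoter table of the GRCm38.p6 mouse build lists 12 promoter windows for the 9 genes, each from 250 bases before to 50 after an annotated start of transcription. They were searched on both strands for the gamma-activated site TTCNNNGAA, the core of the interferon-stimulated response element GAAANNGAA and a κB-like motif GGGANNTCC. Of 32851 windows in the table, 8.30% held the first, 8.56% the second and 4.30% the third. Stretches of the 4 members with a match and a change in RNA that was called in at least 1 fit are given here, 5′ to 3′ on the strand of the gene. Capitals mark the response element core in Socs1 and Stat2 and the gamma-activated site in Socs3 and Cish.
Socs1, chr16:10785587-10785646, minus strand: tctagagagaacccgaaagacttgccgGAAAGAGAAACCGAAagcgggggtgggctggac
Stat2, chr10:128270258-128270317, plus strand: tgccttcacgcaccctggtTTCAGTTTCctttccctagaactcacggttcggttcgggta
Socs3, chr11:117969502-117969531, minus strand: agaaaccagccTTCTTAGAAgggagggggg
Cish, chr9:107296629-107296683, plus strand: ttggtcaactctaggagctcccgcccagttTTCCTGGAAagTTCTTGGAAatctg

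The Socs1 run holds 2 overlapping response element cores, at -83 to -75 and at -77 to -69, where 1 is the first transcribed base and negative positions lie before it. The Stat2 core lies on the strand opposite to the printed one, at -221 to -213. In Cish, 2 gamma-activated sites begin at bases 1 and 12 of the transcript, and a κB-like match on the opposite strand lies at -17 to -9. The Socs3 site lies at -154 to -146. The second of 2 Stat4 windows has a response element core at -97 to -89, and no letters of the 3 motifs were found in the windows of Stat3, Stat5a, Stat5b and Stat6. A match is a run of letters and not a measured binding site.

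**Figure D1:**
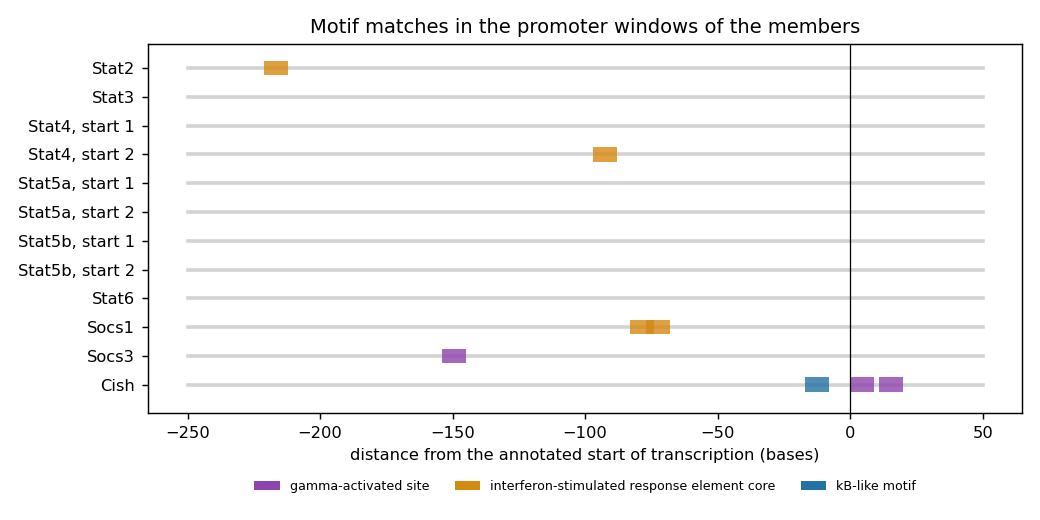
Matches to 3 motifs in the promoter windows of the 9 members, by distance in bases from the annotated start of transcription (0, vertical line). Grey lines are the windows and coloured blocks the 9-base matches. Socs1, Stat2 and the second Stat4 window hold response element cores, and Cish and Socs3 hold gamma-activated sites.

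Of the 9 members, 7 had a probe with a value on all 6 arrays and were tested there, Stat2 was measured on 5 arrays, and Stat6 was present only on a probe listed for Stat6 and Nab2 together. Among the 7 tested, Stat3, Socs1, Socs3 and Cish were called higher, Stat4, Stat5a and Stat5b were not called, and 0 were called lower (1, Stat5b, at an unadjusted p below 0.05). Over all 11364 features on 6 arrays, 14.0% were called higher and 15.0% lower. The median change of the 7 genes was 0.21, against 0.00079 over all features. Only Socs1 and Stat3, with Stat2 beside them, changed by more than 1.5-fold. Since RNA was taken from whole cultures, a change in the RNA of each cell and a change in the share of cells that carry it cannot be told apart.

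**Figure D2:**
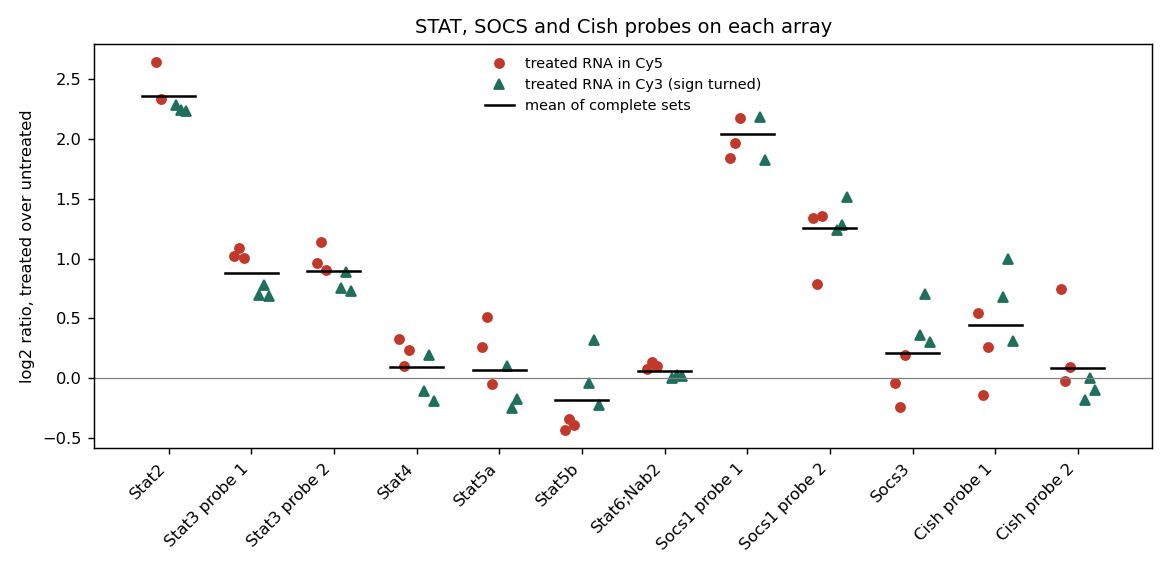
Log2 ratio of treated over untreated RNA for the 12 probes of the members on each array (circles, treated RNA in Cy5; triangles, treated RNA in Cy3 with the sign turned; bars, mean of complete sets). Stat2, Stat3 and Socs1 lie above 0 on every measured array, and the other probes lie near 0 or on both sides of it.

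Stat2, the interferon-specific STAT, had the largest rise of the group. Its probe read 2.64 and 2.34 in sets 2 and 3 with treated RNA in Cy5, and 2.29, 2.24 and 2.23 in sets 1, 2 and 3 with it in Cy3. In set 1 the Cy5 value was exactly 0. All 5 measured values lay between 2.23 and 2.64, with the Cy5 values above the Cy3 values. A separate fit took in the 12192 features that had complete values for 2 sets or more, and set 1 was dropped there for this gene. Stat2 was at 2.36 ± 0.11 (n = 2 sets), a 5.15-fold rise with limma adjusted p = 1.76e-06. That was the 54th largest change upward in that fit, in which 13.0% of features were called higher. With 2 sets, much of the spread behind the p of Stat2 is the one that limma pools over features. With exact zeros kept as values the mean was 1.96 and was not called (adjusted p = 0.0614).

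Stat3, the STAT of the interleukin-6 and interleukin-10 receptors, was read by 2 probes, and both rose on all 6 arrays. The first probe gave 1.02, 1.09 and 1.01 in sets 1, 2 and 3 with treated RNA in Cy5, and 0.70, 0.78 and 0.69 with it in Cy3. The second gave 0.96, 1.14 and 0.90, and 0.75, 0.88 and 0.73. Both probes read the Cy5 arrays higher, and in the mean of both the lowest Cy5 value (0.95) was above the highest Cy3 value (0.83). Stat3 rose by 0.89 ± 0.075, or 1.85-fold (limma adjusted p = 1.10e-05), and ranked 251st among the 11364 features from the largest rise. Its mean was 1.02 on the Cy5 arrays and 0.76 on the Cy3 arrays, and it was called in each orientation alone.

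Stat4, which transmits interleukin-12 signals in lymphocytes, was at 0.32, 0.098 and 0.23 with treated RNA in Cy5 and at -0.11, 0.19 and -0.19 with it in Cy3. The arrays disagreed in sign, and the mean of 0.091 ± 0.063 was not called (adjusted p = 0.192). Stat5a and Stat5b are near-identical neighbouring genes that serve the receptors of growth hormone, prolactin and the colony-stimulating factors, so a probe of one may also bind the transcript of the other. Stat5a was at 0.26, 0.51 and -0.054 on the Cy5 arrays and 0.10, -0.25 and -0.18 on the Cy3 arrays, with 3 arrays above 0 and 3 below. Its mean of 0.065 ± 0.16 was not called (adjusted p = 0.515). Stat5b was the only member with a negative mean. It was at -0.43, -0.34 and -0.39 on the Cy5 arrays and at -0.046, 0.31 and -0.22 on the Cy3 arrays, so that all Cy5 values were below all Cy3 values.

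For Stat5b the mean of -0.19 ± 0.15 was not called (limma adjusted p = 0.0604). It passed on the Cy5 arrays alone (-0.39, adjusted p = 0.0197) and without set 2 (-0.27, adjusted p = 0.00155, with 67.3 prior against 1 residual degree of freedom, so that the spread is almost wholly the one pooled over features), and on the Cy3 arrays alone it was at 0.015 (adjusted p = 0.94). Set by set, Stat5a lay above Stat5b by 0.42, 0.14 and 0.19, a mean difference of 0.25 ± 0.15. The difference had the same sign in all 3 sets, but its sign turned with the dye orientation. The mean of Stat5a was above that of Stat5b on the Cy5 arrays (0.24 against -0.39). On the Cy3 arrays it was below (-0.11 against 0.015). An exact sign-flip test of 3 sets cannot give a p below 0.05, and none was run.

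The probe listed for both Stat6, the STAT of the interleukin-4 receptor, and Nab2, a co-repressor of early growth response factors, cannot be assigned to either gene. It read 0.077, 0.14 and 0.10 on the Cy5 arrays and -0.0012, 0.028 and 0.020 on the Cy3 arrays. All 6 values were within 0.14 of 0. Its mean was 0.060 ± 0.022 and it was not called (adjusted p = 0.346).

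Socs1, whose product binds and blocks JAKs directly, was the suppressor that rose most, by both of its probes. The first probe read 1.85, 1.97 and 2.17 in sets 1, 2 and 3 on the Cy5 arrays and 2.19 and 1.83 in sets 2 and 3 on the Cy3 arrays, and it was exactly 0 in set 1 there. The second probe was measured on all arrays, with 1.34, 0.79 and 1.35 in Cy5 and 1.24, 1.28 and 1.52 in Cy3. Every measured value of the first probe was higher than every value of the second. The gene-level test used only the second probe, at 1.25 ± 0.20 or 2.38-fold (limma adjusted p = 1.97e-05, rank 159 from the largest rise). The first probe gave 2.04 ± 0.054 (n = 2 sets, set 1 dropped), or 4.11-fold, in a fit of 14612 single probes with complete values for 2 sets or more (limma adjusted p = 1.36e-06), of which 13.0% were called higher. With 2 sets, much of the spread behind the p of the first probe is the one that limma pools over features. The mean of both probes over sets 2 and 3 was 1.64. The direction was thus common to both probes and the size was not.

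Socs3, the suppressor that docks on the gp130 chain of the interleukin-6 receptor, moved far less. Its probe was at -0.046, -0.24 and 0.20 on the Cy5 arrays and at 0.36, 0.70 and 0.30 on the Cy3 arrays, without overlap between orientations. The set means of 0.16, 0.23 and 0.25 lay close together, though the 6 array values ran from -0.24 to 0.70. Socs3 was called higher at 0.21 ± 0.047, or 1.16-fold (limma adjusted p = 0.00915). The mean was 0.45 on the Cy3 arrays (adjusted p = 0.0313) and -0.031 on the Cy5 arrays (adjusted p = 0.844), so that sign and call both rested on the Cy3 orientation. With the 6 arrays taken as separate values the call ended (adjusted p = 0.277), as it did with the set as a fixed replicate block (adjusted p = 0.455). The second Socs1 probe lay above Socs3 by 1.13, 0.81 and 1.19 in the 3 sets.

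Cish, a suppressor best known as a target of STAT5, was called higher at 0.26 ± 0.16, or 1.20-fold (limma adjusted p = 0.0185), and its 2 probes differed. The first read 0.55, -0.14 and 0.26 on the Cy5 arrays and 0.67, 0.99 and 0.31 on the Cy3 arrays. The second read 0.74, -0.024 and 0.090, and -0.19, -0.0042 and -0.10. The first was above 0 on 5 arrays and the second on 2, of which the Cy5 array of set 1 stood apart from its other values. On its own the first probe was at 0.44 ± 0.16 and called (adjusted p = 0.00196), and the second at 0.086 ± 0.17 and not called (adjusted p = 0.419). The gene-level call also ended without set 1 (0.17, adjusted p = 0.0782), with exact zeros kept (adjusted p = 0.147), on the Cy5 arrays alone (0.24, adjusted p = 0.298), on the Cy3 arrays alone (0.28, adjusted p = 0.0864), and with the 6 arrays as separate values (adjusted p = 0.0921) or with a fixed replicate block (adjusted p = 0.165).

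**Figure D3:**
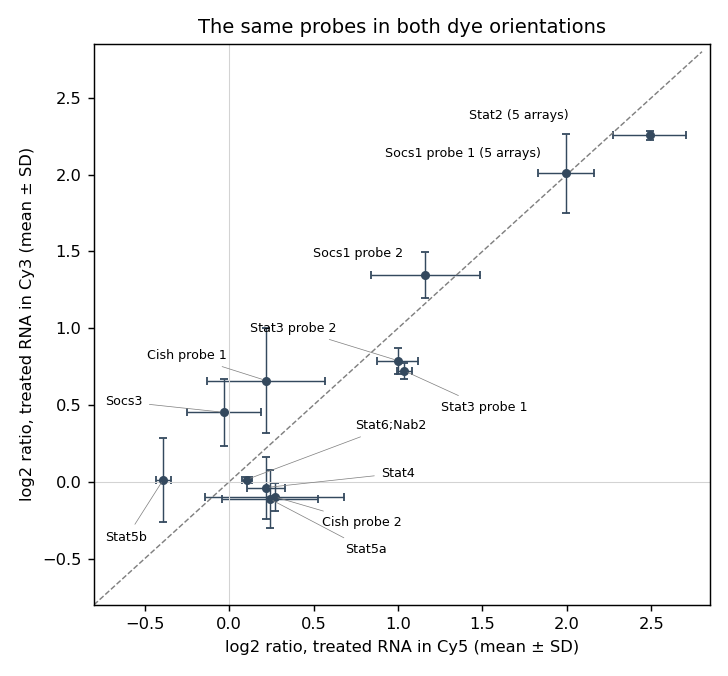
Mean log2 ratio ± SD over arrays of each member probe with treated RNA in Cy5 (horizontal axis) against treated RNA in Cy3 (vertical axis); the dashed line marks equality. The probes of Stat2, Stat3 and Socs1 are positive on both axes. Off the line lie Socs3 (-0.031 and 0.45), Cish probe 1 (0.22 and 0.66) and Stat5b (-0.39 and 0.015) on its upper side, and Cish probe 2 (0.27 and -0.097) and Stat5a (0.24 and -0.11) on its lower side.

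The dye orientations of Stat3, Stat5b and Socs3 did not overlap, which was so for 37.9% of all features. Neither did those of the probe listed for Stat6 and Nab2, or of Stat2 on its 5 arrays. In the limma test of the dye effect, the unturned mean of a set in which the treatment cancels, 0.00% of features were called. The smallest adjusted p was 0.0732, and 2630 features had an unadjusted p below 0.05. The dye effect was 0.13 ± 0.0091 for Stat3, -0.20 ± 0.12 for Stat5b and -0.24 ± 0.21 for Socs3 (adjusted p = 0.170, 0.184 and 0.234). For Stat5b and Socs3 the dye effect was as large as or larger than the treatment change. It was also larger for Stat4 (0.13 against 0.091) and Stat5a (0.18 against 0.065), and for Stat3 it was 0.13 against 0.89.

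**Figure D4:**
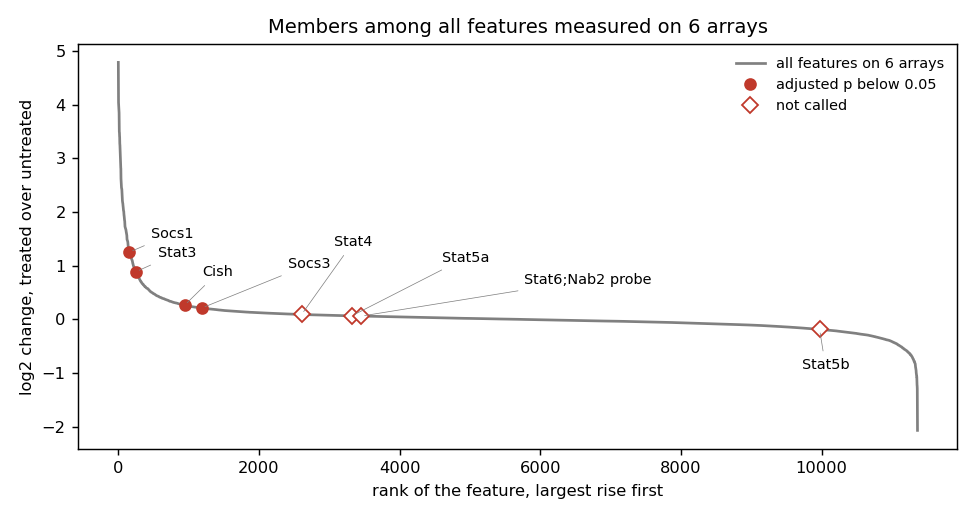
Log2 change of all 11364 features on 6 arrays in order of size (grey line), with the 7 tested members and the probe listed for Stat6 and Nab2 (filled, adjusted p below 0.05; open, not called). Socs1 and Stat3 sit on the steep part of the curve, at ranks 159 and 251, and the rest lie on its flat part.

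In the order of their changes, Stat2 (2.36) came before Socs1 (1.25 to 2.04 by probe) and Stat3 (0.89), and the remaining members followed between 0.26 and -0.19. Stat3 exceeded Stat4 by 0.75, 0.83 and 0.81 in the 3 sets, and the second Socs1 probe exceeded Cish by 0.84, 0.83 and 1.30. Neighbours in this order were close in 2 cases: Cish and Socs3, and Stat4 and Stat5a, differed by less than the larger of their SDs. Socs3 and Stat4 differed by more than either SD over sets, but their order turned with the dye orientation. Socs3 was below Stat4 on the Cy5 arrays (-0.031 against 0.22) and above it on the Cy3 arrays (0.45 against -0.037). The named genes whose 6 array values lay closest to those of Stat3, by root mean square difference, were H2-T9 (0.074), Smox (0.084) and Lce1d (0.099). For Socs1, read here by its second probe alone, they were Slc6a4 (0.14), Il10 (0.15) and Rnf19b (0.16). Il10, the gene of an anti-inflammatory cytokine that signals through STAT3, rose by 1.18 ± 0.31, Slc6a4 by 1.34 ± 0.22 and Rnf19b by 1.30 ± 0.072. For Socs3 they were Flt3l, Rps28 and Irf5 (0.081 to 0.099), and for Cish they were Elane, Dmd and Aff1 (0.11 to 0.13).

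Upstream of the STATs, genes of cytokine ligands and of Janus kinases were called in 1 direction, higher. Of 26 cytokine ligand genes, 9 were called higher and 0 lower by limma (11 and 0 at an unadjusted p below 0.05), with a median of 0.094. Over all features 14.0% were called higher and 15.0% lower. The largest were interferon-β (Ifnb1, 3.94 ± 0.65), the granulocyte growth factor Csf3 (3.40 ± 0.35) and Il6 (2.81 ± 0.46), while Il12a was at 0.13 ± 0.11 and not called. Of the 4 Janus kinase genes, Jak2 rose by 0.87 ± 0.044, Tyk2, the kinase of the interferon-α and -β receptor, by 0.74 ± 0.12, and Jak1 by 0.16 ± 0.039. Jak3, the lymphocyte kinase, was at 0.11 ± 0.071 and not called.

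Receptor chain genes were called in both directions, 5 higher and 4 lower of 28, with a median of 0.075. These shares are near the 14.0% higher and 15.0% lower over all features. The interleukin-10 receptor chain gene Il10ra rose by 0.93 ± 0.075, Il13ra1 by 0.75 ± 0.10 and Il15ra by 0.63 ± 0.083, and Il21r was at -0.22 ± 0.21 and not called. The 4 that fell were named after their values were seen. They were Ifngr1 (-0.37 ± 0.022), Il6st, the gene of gp130 (-0.25 ± 0.11), Ifnar2 (-0.16 ± 0.059) and Il6ra (-0.15 ± 0.047). None of these 4 falls reached 1.5-fold.

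Of 11 further STAT, SOCS and partner genes, 5 were higher and 0 lower by limma (7 and 1 at an unadjusted p below 0.05), with a median of 0.15. Nmi, an interferon-induced STAT-interacting protein gene, rose by 1.28 ± 0.13, and Irf9, a DNA-binding partner of STAT2, by 0.97 ± 0.20. The adaptor gene Sh2b3 rose by 0.37 ± 0.043, and Socs2 was at 0.17 ± 0.12 and not called (adjusted p = 0.0586). Among 10 other inhibitors, 3 were higher and 1 lower, with a median of 0.015. Usp18, which blocks the type I interferon receptor, rose by 3.41 ± 0.41 and the phosphatase gene Ptpn11 by 0.25 ± 0.095, and Pias3, an inhibitor of STAT3, was lower at -0.24 ± 0.19 (limma adjusted p = 0.0449). Pias2 was at -0.099 ± 0.024 and not called. Of 5 genes of the ubiquitin ligase that SOCS proteins recruit, Cul5 rose by 0.19 ± 0.048 and the other 4 were not called, among them Eloc at 0.097 ± 0.016. Over all features 14.0% were called higher and 15.0% lower. The 1 ligase gene higher of 5 and the 1 inhibitor gene lower of 10 lie near those shares.

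**Figure D5:**
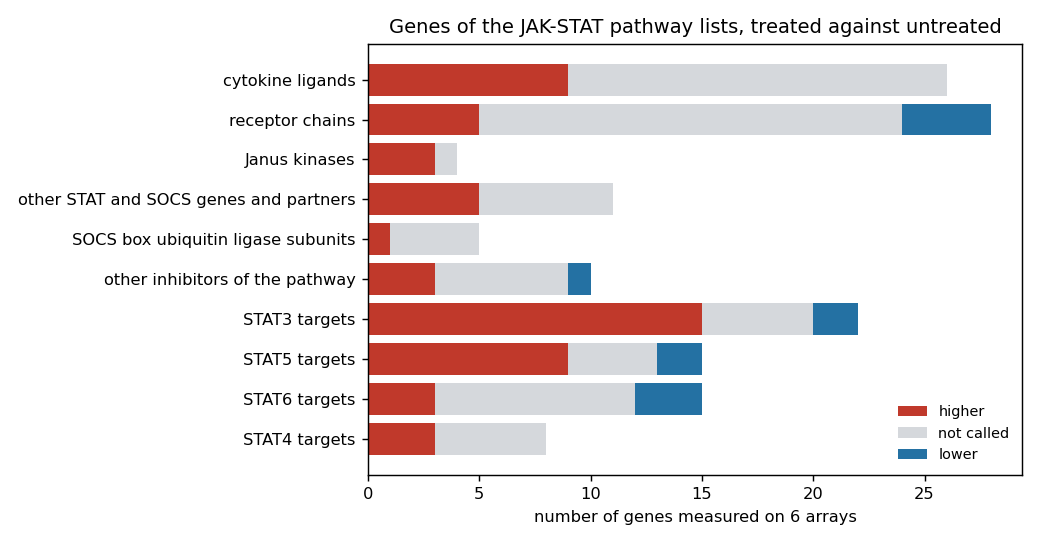
Number of genes called higher, not called and called lower in each list of JAK-STAT pathway genes, among those measured on 6 arrays. In the list of STAT3 targets 15 of 22 genes were higher and 2 lower, and in that of STAT6 targets 3 were higher and 3 lower of 15.

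Known target genes were grouped by STAT. Each list holds genes that other factors also drive, and 7 of the 52 target genes tested are in more than 1 list. STAT3 targets counted 15 higher and 2 lower of 22 with a median of 0.39, among them the acute-phase gene Saa3 (3.85 ± 0.12), the interleukin-1 antagonist gene Il1rn (3.16 ± 0.26) and Myc (3.00 ± 0.36). Cebpb was at 0.13 ± 0.052 and not called. Over all features 14.0% were called higher and 15.0% lower.

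STAT5 targets counted 9 higher and 2 lower of 15 with a median of 0.20. The survival kinase genes Pim1 (2.44 ± 0.10) and Pim2 (0.87 ± 0.11) rose with Myc, which stands in this list too, as does the uncalled Socs2. STAT6 targets, which mark interleukin-4-activated macrophages, counted 3 higher and 3 lower of 15 with a median of 0.032. The higher were Myc again, the β-glucan receptor gene Clec7a at 0.74 ± 0.37 and the chemokine gene Ccl22 at 0.69 ± 0.11. The lower, named after their values were seen, were Klf4 (-0.47 ± 0.091), Pparg (-0.19 ± 0.13) and Clec10a (-0.18 ± 0.12). Tgm2 was not called at 0.12 ± 0.094. STAT4 targets counted 3 higher and 0 lower of 8 by limma (4 and 0 at an unadjusted p below 0.05) with a median of 0.087. Its highest members were Il18 (1.12 ± 0.026), Furin (0.29 ± 0.11) and Il18rap (0.26 ± 0.016), and Il12rb2 was not called at 0.15 ± 0.092. These counts stand beside 14.0% higher and 15.0% lower over all features.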

How the data were processed

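Total RNA was measured on 6 two-colour arrays. The values deposited by the authors are log2 ratios, with base 2 inferred because the table's maximum, 6.64, equals a ratio capped at 100. Scanner, background correction, normalization and build are not given in the sources used here, and every array has a deposited median of 0. Exact zeros were treated as missing. Probes came from the platform annotation of 16281 probes, and probes of 1 gene with values on all 6 arrays were averaged, which gave 11364 features (9574 named genes). The 2 arrays of a set were assumed to hold the same RNA pair with the dyes exchanged, and were averaged after the sign turn. Set means (n = 3) entered limma 3.58.1 against 0 (lmFit, eBayes, two-sided) in R 4.3.3. The test was first checked on simulated set means, drawn as independent normal values with the spread that limma had fitted. That simulation held no single arrays, dye effect or correlation within sets, so it cannot judge the averaging of arrays. Arrays of opposite orientation correlated between -0.775 and -0.397 across features before the turn. Members, lists and alternatives were chosen with earlier results of these data known. Named besides the members are, for each list, the 3 called genes and the 1 uncalled gene with the largest absolute change, and the 3 nearest genes of each called member. Outside this rule, Ifngr1, Il6st, Ifnar2, Il6ra, Klf4, Pparg, Clec10a and Cd4 were named after their values were seen. Tests on single probes in at least 2 sets, the further settings for Stat2 and the first Socs1 probe, and the mean of both Socs1 probes were added after seeing the data. Coordinates are those of the RefSeq promoter table. A further list of target genes is not reported here.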

Additional observations from a re-analysis of the deposited data

How the results depend on the processing

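Stat3 kept its direction and its call under all 19 settings run, and Socs1 under all 18 that gave a test, between 0.76 and 1.02 and between 1.16 and 1.46. Stat2 did so under 11 of the 12 settings with a test, except with exact zeros kept, and the first Socs1 probe under all 11. Set 1 was already dropped for Stat2 and this probe, so leaving it out kept the same values (2.36 and 2.04). Robust variances and the stricter threshold also leave every estimate unchanged, so these counts are not of independent checks. Without set 2 or set 3, Stat2 and the first Socs1 probe rest on 1 set, with no test. Socs3 reversed to -0.031 on the Cy5 arrays alone. On the Cy3 arrays alone the uncalled Stat4, Stat5a and Stat5b reversed to -0.037, -0.11 and 0.015. The 4 members called became 2 without a replicate block, with a fixed replicate block, against a 1.5-fold change, and when a feature was kept only if both dye orientations gave it 1 sign in each set. Over all features the 3294 calls became 2467 without a replicate block, 1752 with a fixed replicate block and 1825 on the Cy5 arrays alone. They became 296 against a 1.5-fold change (261 higher and 35 lower, or 88.2% higher against 48.1% of the 3294) and 2127 at an adjusted p below 0.01. Dye effect calls went from 0 to 1 with quantile normalization and, with a set left out, ranged from 0 to 6. After the sign turn, deviations of same-numbered arrays correlated at -0.48, -0.51 and -0.020 in sets 1, 2 and 3. The arrays of a set thus share a number and were not shown to be paired. With the set as a random replicate block, the consensus correlation within sets was -0.531. Where the 2 arrays of a set deviate in opposite directions, their mean varies less than the arrays do. The SDs and p-values over 3 sets can therefore understate the spread among arrays. The table gives no intensities, so a filter on dim probes was not run, and how far ratios of dim or saturated spots are compressed is unknown.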
